A study of Homo sapiens with 20 samples.

Results

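The baseline described here is the transcriptome of untreated TPC-1 cells, an established human cell line that came from a papillary carcinoma of the thyroid. It was read from the 4 RNA-seq libraries that the labels call untreated controls, out of 10 RNA-seq libraries and 20 libraries in the whole series. They were chosen by label alone, and no measured value entered the choice. All 54261 features of the deposited gene count table were examined in these 4 libraries.

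The study cultured TPC-1 for 48 h with or without PMN-MDSCs (polymorphonuclear myeloid-derived suppressor cells), and measured mRNA and miRNA. The controls received no PMN-MDSCs and no other agent that the labels name. The labels give no genotype beyond the line, so every library shares whatever alterations the line carries. They do not say whether the 4 libraries came from separate cultures, so the spread among them may be technical, and a single line does not stand for papillary carcinoma in general. No comparison with the coculture was made.

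A thyroid follicular cell is specified by the transcription factors PAX8, NKX2-1, FOXE1 and HHEX. Under thyrotropin, acting through its receptor TSHR, it takes up iodide through the symporter SLC5A5, oxidises it with the help of the DUOX enzymes, and builds hormone on the thyroglobulin scaffold TG. Papillary carcinoma is driven mostly by single lesions that feed the MAPK cascade, among them BRAF and RAS mutations and fusions of the receptor tyrosine kinase RET. TPC-1 is widely used as the model of the CCDC6-RET fusion, in which the promoter and first part of CCDC6 are joined to the kinase part of RET.

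Library totals were 45623475, 40458717, 41256715 and 44658839 counts for controls 1 to 4. CPM is the count of a gene divided by its library's total and multiplied by 1000000, and compares 1 gene across libraries. To compare genes with each other, counts were divided by the transcript length in the deposited table and rescaled to the same total in each library, given below as TPM. A gene counts as expressed at 1 CPM or more in all 4 libraries. A count of 0 allows a level of up to 3 counts, which is 0.0658 to 0.0741 CPM depending on the library, and covers counting error only.

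Some stretches of the table gave counts that cannot be read as levels, and they are set out first because they touch genes named below. In a 5 Mb window of chromosome 6 that holds the major histocompatibility complex (MHC), whose protein-coding genes span chr6:28503296-33323016, 122 of 158 protein-coding genes (77.2%) had 0 counts in all 4 libraries, against 12.3% and 15.9% in the 5 Mb on either side. The window was chosen after its values were seen. Genes that every growing cell uses were among those at 0, including TUBB, the tubulin beta chain, RPS18, a ribosomal protein, and VARS, a tRNA synthetase. Of 696 protein-coding genes placed by the table on scaffolds outside the chromosomes, 377 (54.2%) were at 0, against 21.5% of the 18720 that lay on a chromosome, outside the window and inside no other gene of the same strand. Inside such a gene, 38.7% of 574 were at 0, among them EIF4A1, the helicase of translation initiation. Inside a gene of the opposite strand only, 40.4% of 765 were at 0, and these 765 are counted within the 18720. How reads with several possible positions were treated is not given in the sources used here, and its part in these zeros was not tested. For genes in the window, on scaffolds or inside a gene of the same strand, a 0 is given only as listed. Genes that lie inside a gene of the opposite strand are not marked below.

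**Figure D1:**
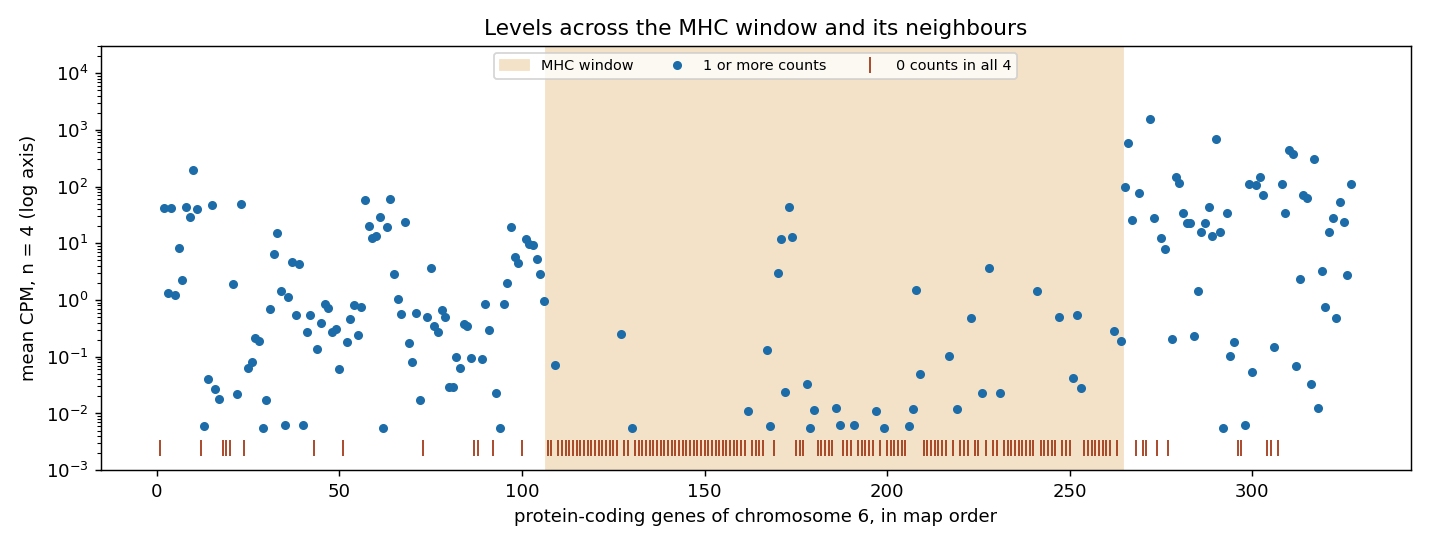
Mean CPM (log axis, n = 4 libraries) of the protein-coding genes of the MHC window and of the 5 Mb on either side, in map order, with the MHC window shaded and genes with 0 counts in all 4 libraries drawn as ticks at the bottom. Ticks fill the shaded window, where 122 of 158 genes were at 0, and are sparse on both sides of it.

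Untreated TPC-1 expressed 12246 of the 54261 features, and 25641 had at least 1 count in some library. Of the 20148 protein-coding genes, 11081 (55.0%) were expressed, with 11273 to 11386 at 1 CPM in any single library. The level ladder was steep: 9593 protein-coding genes reached 5 CPM in all 4 libraries, 1960 reached 100 CPM and 79 reached 1000 CPM.

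Protein-coding genes took 98.0% ± 0.0878 (SD, n = 4) of the counts. Pseudogenes took 1.18% ± 0.072 and the class labelled ncRNA 0.73% ± 0.0198, while snoRNAs held 0.0129% ± 0.00165. The 21 features of the rRNA class were at 0 in every library, which cannot be read as their absence from the cells. Mitochondrially encoded genes, transcribed inside the organelle, took 2.41% ± 0.094, and the cytosolic ribosomal protein genes 5.54% ± 0.506. The ribosomal protein share was 5.07% and 5.16% in controls 1 and 2, and 5.82% and 6.11% in controls 3 and 4.

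The pseudogene share lay largely with copies of very abundant genes. RPS2P5, a processed copy of the ribosomal protein gene RPS2, led the class at 905, 916, 1116 and 1042 CPM in controls 1 to 4, followed by EEF1A1P5 at a mean of 658 CPM and RPS18P5 at 613 CPM. RPS18P5 carried 576 to 674 CPM in the libraries in which its parent RPS18 was listed at 0. Reads of such copies and of their parents cannot be told apart here, so both levels are uncertain. Pseudogenes named for ribosomal proteins together held 0.641% ± 0.0569 of the counts.

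No single gene dominated. The 10 genes with the highest mean CPM held 5.85% ± 0.111 of the counts, the top 100 held 21% ± 0.619 and the top 1000 held 53.9% ± 0.841. FN1, which encodes the matrix protein fibronectin, was the most abundant gene by count at 10755, 10313, 7638 and 7225 CPM, a mean of 8983 ± 1808. Controls 1 and 2 lay above controls 3 and 4 for FN1, and in control 4 the cytoskeletal actin ACTB passed it with 7751 CPM. FN1 lies at chr2:215360440-215436167 on the minus strand and has a long transcript, and per length it ranked 53 among protein-coding genes, at 2341 TPM.

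Per length, the table was led by housekeeping and iron-storage genes. The glycolytic enzyme GAPDH came first at 9490 ± 334 TPM, followed by the ferritin heavy chain FTH1 at 9399 ± 1497 and ACTB at 9240 ± 112. These values differ by less than the spread of FTH1 among the libraries. The mitochondrial cytochrome oxidase subunit COX3 had 9229 TPM and COX1 8861 TPM. The ferritin light chain FTL, at 7186 TPM, and the metal-binding metallothionein MT2A, at 4420 TPM, were also among the 20 highest.

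An unusual entry in that top group was G0S2, a small protein that inhibits triglyceride lipase, ranked 5 at 9095 ± 954 TPM. Its counts came to 2454, 1928, 2293 and 2399 CPM, so the level was high in every library. Of the 20 highest genes per length, the rest encoded ribosomal proteins (RPS2, RPL8, RPLP1, RPLP0), respiratory chain subunits (COX2, ATP6, ND4, ND1), the actin ACTG1, the actin-binding peptide TMSB10 and the glycolytic enzymes PKM and ENO1.

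Glycolysis genes were broadly present, with 20 of 21 expressed (95.2%, against 55% of all protein-coding genes). Their median was 250 TPM, against 2.49 TPM over all protein-coding genes. PKM had 3893 TPM, ENO1 3802 and both lactate dehydrogenase subunits over 1000, with LDHB at 1698 TPM and LDHA at 1389. The lactate exporter SLC16A3 had 215 TPM and the glucose carrier SLC2A1 82.7. All 20 proliferation genes were expressed, against 55% of all protein-coding genes. Their median was 162 TPM, and thymidylate synthase TYMS at 431 and the replication clamp PCNA at 429 led them. MKI67, the antigen used to count cycling cells, read 640, 637, 503 and 488 CPM.

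Thyroid identity was split. PAX8 was strongly expressed while NKX2-1, its partner in activating the thyroid-specific genes, had 0 counts in all 4 libraries. PAX8 counts were 524, 522, 495 and 498 CPM, a mean of 510 ± 15.3, so the libraries lay within 1.06-fold of each other. Per length PAX8 reached 281 TPM and ranked 538 among protein-coding genes. FOXE1, a forkhead factor, had 11, 10.2, 11.1 and 8.87 CPM (13.2 TPM), and HHEX, a homeobox factor, had 9.84, 9.15, 9.67 and 7.41 CPM (11.7 TPM). GLIS3, a zinc finger factor whose loss causes hypothyroidism, had 22.3, 27.4, 18.2 and 16.5 CPM (6.26 TPM). Per length FOXE1 and HHEX did not differ beyond their spread of 1.63 and 1.77 TPM, and both lay far under PAX8.

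The sequences just before these genes are shown because they let the CpG sites of 3 factors with counts be set beside those of the 1 without; CpG is the dinucleotide that DNA methylation acts on. Each is 100 bases of RefSeq sequence (GRCh38.p14), 5′ to 3′ on the gene's strand, with every CG in capitals. Each is the stretch nearest the RefSeq start that also lies outside the gene as the deposited table places it. The sequence of PAX8 is at chr2:113278951-113279050 on the minus strand, FOXE1 at chr9:97853126-97853225 on the plus strand, HHEX at chr10:92689824-92689923 on the plus strand and NKX2-1 at chr14:36520233-36520332 on the minus strand.
PAX8: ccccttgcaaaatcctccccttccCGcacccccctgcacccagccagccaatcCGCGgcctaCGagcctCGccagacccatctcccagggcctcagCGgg
FOXE1: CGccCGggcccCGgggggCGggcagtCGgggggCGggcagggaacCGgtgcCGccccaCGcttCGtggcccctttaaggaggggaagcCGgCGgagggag
HHEX: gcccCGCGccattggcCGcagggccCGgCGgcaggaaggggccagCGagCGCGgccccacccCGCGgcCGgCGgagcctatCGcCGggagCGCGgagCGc
NKX2-1: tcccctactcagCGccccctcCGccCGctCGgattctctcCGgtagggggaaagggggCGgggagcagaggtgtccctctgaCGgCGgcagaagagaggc

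PAX8, with the highest level of the 4, had the fewest CG in its stretch, 6, against 8 for NKX2-1, 12 for FOXE1 and 17 for HHEX. Over the full 300 bases around the RefSeq start, the ratio of observed to expected CpG was 0.483 for PAX8, 0.615 for NKX2-1, 0.746 for FOXE1 and 0.924 for HHEX. In these 4 genes the order of CpG content was not the order of levels. GLIS3 was not included, and no link between CpG content and level was tested. DNA methylation was not measured.

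Most of the machinery of hormone synthesis was under the threshold. Of 18 genes, 1 was expressed, 9 had 0 counts in all 4 libraries, and the median was 0.00328 TPM. CRYM, which binds thyroid hormone in the cytosol, read 1.91, 2.25, 0.873 and 1.32 CPM and missed the threshold in control 3. TG, at 1.25, 1.24, 0.436 and 0.269 CPM, was above 1 CPM in controls 1 and 2 and below it in controls 3 and 4.

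TSHR, SLC5A5, the deiodinases DIO2 and DIO3, the iodotyrosine deiodinase IYD, the DUOX2 maturation factor DUOXA2 and the chloride channel ANO1 each had 0 counts in all 4 libraries. SLC5A8 was also listed at 0, but the table places it on a scaffold. Traces were seen of further members: DUOXA1 at 0.36 CPM, DUOX1 at 0.254, DUOX2 at 0.113, the iodide exporters SLC26A7 at 0.467 and SLC26A4 at 0.184, and DIO1 with a single count in control 4. The nuclear receptors that read thyroid hormone were present, with THRA at 20.1 CPM (18.2 TPM) and THRB at 6.82 CPM (2.04 TPM). Their partner RXRA had 162 CPM (59.5 TPM).

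Of 27 genes known as papillary carcinoma markers, 16 were expressed (59.3%), a share near the 55% of all protein-coding genes. FN1, the integrin ITGA3 (796 TPM), the protease inhibitor TIMP1 (412 TPM) and the tight junction protein CLDN1 (116 TPM) led them per length. KRT19, the keratin most used in pathology for this tumor, read 1.01, 0.371, 0.412 and 0.605 CPM and was not expressed by the threshold. LGALS3, galectin-3, had 9.97, 9.10, 10.5 and 10.4 CPM. TFF3, SLC34A2, CXCL14, GABRB2 and SFTPB had 0 counts in all 4 libraries.

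RET was expressed at 42.3, 46.6, 41.9 and 40.7 CPM, a mean of 42.9 ± 2.57 (17.4 TPM). Its fusion partner CCDC6 had 6.42, 5.86, 5.07 and 6.34 CPM, a mean of 5.92 ± 0.622 (2.32 TPM). Per length RET was thus above CCDC6 in all 4 libraries. A count per gene does not say which exons the reads came from, so these values do not separate a fusion transcript from either normal transcript. RET lies at chr10:43077069-43130351 on the plus strand and CCDC6 at chr10:59788747-59906656 on the minus strand.

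The 100 bases before both genes are shown because a CCDC6-RET fusion places RET sequence under the CCDC6 promoter. They are printed as above, RET at chr10:43076969-43077068 and CCDC6 at chr10:59906657-59906756.
RET: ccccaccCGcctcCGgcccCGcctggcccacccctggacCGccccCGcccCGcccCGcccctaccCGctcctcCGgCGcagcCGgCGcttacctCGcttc
CCDC6: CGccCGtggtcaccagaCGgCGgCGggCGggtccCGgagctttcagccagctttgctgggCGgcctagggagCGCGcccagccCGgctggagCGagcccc

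They held 13 and 12 CG. The ratio of observed to expected CpG over the full 300 bases was 1.03 for RET and 0.742 for CCDC6.

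Of the other genes around RET, the fusion partners NCOA4, a ferritin receptor of autophagy, and PRKAR1A, a subunit of protein kinase A, had 201 CPM (123 TPM) and 157 CPM (79.8 TPM). The ligand GDNF read 11.2, 20.3, 15.4 and 14.2 CPM, and its co-receptor GFRA1 13.9, 19.5, 21.4 and 19.3 CPM. Whether the RET reads come from a receptor that can bind this ligand cannot be told from counts per gene. The other co-receptors were near 0, with a single count for GFRA3, 2 for GFRA2 and 0 for GFRA4. Of the other ligands, ARTN had 0.58 CPM, PSPN 0.379 and NRTN a single count.

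Of 26 other thyroid cancer driver genes, 23 were expressed (88.5%, against 55% of all protein-coding genes), with a median of 14.6 TPM. BRAF had 19.6 CPM (4.69 TPM) and NRAS 109 CPM (56.2 TPM). TERT, the catalytic subunit of telomerase, read 5.81, 6.28, 7.71 and 8.62 CPM (3.51 TPM). The receptor kinase ALK, with 1 count in each of controls 1 and 3, was not expressed, and NTRK3 was low at 2.74 CPM.

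HRAS needs its position beside its value. It read 1.78, 6.60, 6.81 and 2.08 CPM, and the table gives it a span of 473685 bases that runs over other genes. This value cannot be read as the level of the gene.

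**Figure D2:**
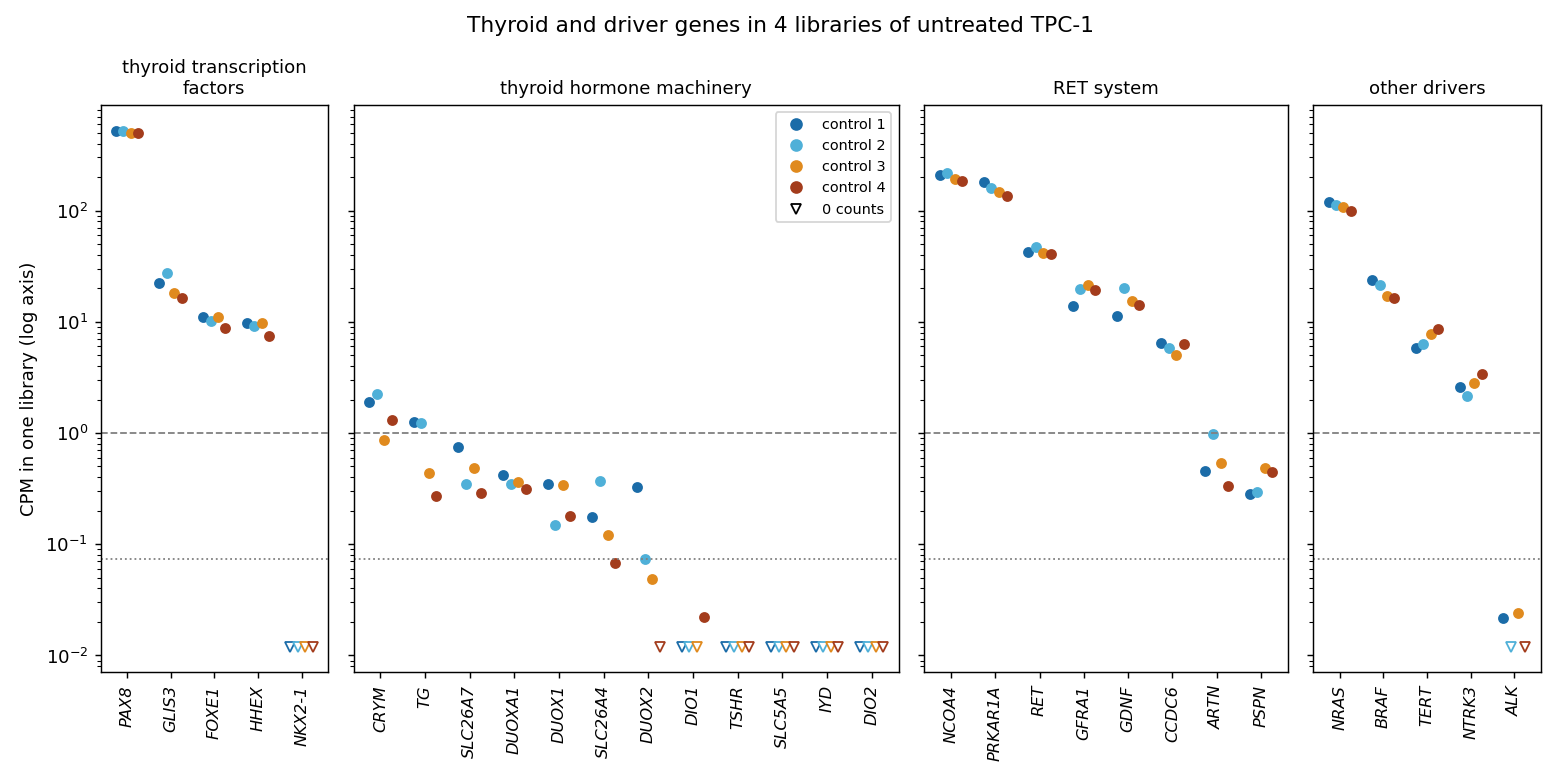
CPM of thyroid transcription factors, hormone machinery, the RET system and other driver genes (log axis) in each of the 4 libraries, 1 point per library, with open triangles for 0 counts, a dashed line at 1 CPM and a dotted line at 3 counts. PAX8 lies between 495 and 524 CPM while NKX2-1, TSHR, SLC5A5, IYD and DIO2 are at 0 counts in all 4.

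In the MAPK lists, 12 of 13 cascade genes (92.3%) and 22 of 23 output genes (95.7%) were expressed, against 55% of all protein-coding genes. Whether RET has a part in these levels was not tested. The output list had a median of 34.2 TPM. FOSL1, an AP-1 subunit that accumulates under sustained ERK signalling, had 531, 492, 626 and 642 CPM (744 TPM), and CCND1, cyclin D1, had 913, 974, 979 and 909 CPM (502 TPM). Early response genes ran over a wide range: the AP-1 subunit JUN had 290, 231, 281 and 266 CPM (299 TPM) and JUNB 19.7 CPM (34.2 TPM), while FOS had 4.38 CPM and EGR1 3.88. Among the ERK phosphatases DUSP5 had 121 CPM and DUSP4 3.84. EGR1 was highest in control 1 at 7.26 CPM, with 1.73 to 3.61 CPM in the other 3 libraries. DUSP6, the ERK phosphatase, had 76.8 CPM in control 1 and 48.7 to 52.5 CPM in controls 2 to 4. IER3 was listed at 0 and lies in the MHC window.

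The cell cycle inhibitors at 9p21, a region often deleted in cell lines, were present. CDKN2A, which encodes p16, had 201, 194, 206 and 210 CPM (178 TPM), and MTAP, the salvage enzyme beside it, had 83.8, 67.3, 73.5 and 74.8 CPM (34.7 TPM). CDKN2B was lower at 6.38 ± 1.82 CPM (3.72 TPM). The interferon genes of the same region, IFNB1, IFNA1 and IFNW1, had 0 counts, as did HACD4, and IFNE had 0.582 CPM. DNA copy number was not measured. CDKN1A, which encodes the inhibitor p21, had 376 CPM (372 TPM) and CDK4 383 CPM (435 TPM), while CCND2 had 0.0487 CPM and CDKN1C 0.17.

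Of 32 receptor tyrosine kinases, 15 were expressed (46.9%, against 55% of all protein-coding genes). AXL led per length at 313 TPM, with 562, 554, 791 and 707 CPM, higher in controls 3 and 4 than in controls 1 and 2. MET, the receptor of hepatocyte growth factor, ran the other way at 374, 319, 260 and 239 CPM (102 TPM). FGFR1 (40.5 TPM), TYRO3 (39.4), EGFR (38.0), FGFR4 (34.5) and ERBB2 (30.6) lay close together, while ERBB3 had 0.409 CPM and ERBB4 0.0639. KIT, FLT1 and ROS1 had 0 counts in all 4 libraries, and DDR1 was listed at 0 inside the MHC window.

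Of 25 growth factor ligands, 19 were expressed (76%, against 55% of all protein-coding genes), led by TGFB1 at 96.2 TPM and VEGFB at 63.2. The AXL ligand GAS6 had 44.1 CPM (39.6 TPM), and the EGFR ligands TGFA and HBEGF had 34.3 and 22.0 TPM. HGF, the MET ligand, had 0 counts in all 4 libraries. IGF1 also had 0 counts.

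The cells held simple keratins and a mesenchymal matrix side by side. KRT18 read 314, 319, 381 and 390 CPM (545 TPM) and KRT8, its partner in simple epithelia, 218, 220, 256 and 270 CPM (255 TPM). KRT81, a hair keratin, had 163 TPM and KRT15, a keratin of basal cells, 53.6 TPM. Reads may be shared among keratins and their many pseudogenes, so these levels are uncertain. Of 13 stratified epithelial keratins, KRT15 and KRT10 were expressed, and KRT5, KRT14, KRT16, KRT1, KRT6A, KRT6B and KRT6C had 0 counts in all 4 libraries.

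CDH1, which encodes E-cadherin, had 0 counts in all 4 libraries, and EPCAM read 0.132, 0.0741, 0.0485 and 0.202 CPM. Of 26 epithelial adhesion and junction genes, 11 were expressed (42.3%, against 55% of all protein-coding genes), among them CLDN1 at 165, 216, 163 and 158 CPM, the desmosomal cadherin DSG2 at 119 CPM and PERP at 116 CPM. DSP, desmoplakin, had 0.0549 CPM, and the claudins CLDN3, CLDN4 and CLDN7 had 0.0056, 0.0424 and 0.0346 CPM. Of 18 epithelial regulators, 3 were expressed, KLF4, KLF5 and GRHL1. GRHL2, OVOL1, OVOL2 and RAB25 had 0 counts, and the splicing factors ESRP1 and ESRP2 had 0.0285 and 0.262 CPM.

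On the mesenchymal side, 22 of 30 structural genes (73.3%) and 9 of 11 transcription factors (81.8%) were expressed, against 55% of all protein-coding genes. VIM, vimentin, had 4118, 4214, 4752 and 4963 CPM (3199 TPM) and ranked 33 per length. SPARC, a matrix protein, had 337 CPM (215 TPM) and TNC, tenascin C, 276 CPM (73.8 TPM). ZEB1, a repressor of CDH1, read 74.3, 49.6, 44.6 and 48.1 CPM (13.9 TPM), SNAI2 26.4, 30.8, 35.3 and 35.1 CPM (34.4 TPM), and SNAI1 5.92, 5.29, 5.11 and 4.79 CPM (7.07 TPM). Per length SNAI2 was above ZEB1 by more than their spread of 3.36 and 3.99 TPM.

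The mesenchymal pattern was partial. The fibroblast collagens COL1A1 at 2.64 CPM, COL1A2 at 0.0122 and COL3A1 at 0.0171 were low or near 0, and POSTN, DCN and CDH11 had 0 counts in all 4 libraries. Other collagens of the list were higher, with COL6A1 at 249 CPM (135 TPM), COL6A2 at 184 CPM (112 TPM) and COL5A1 at 15.1 CPM (4.07 TPM). Of the cadherins on this mesenchymal list, CDH6 at 75.6 CPM (20.1 TPM) and CDH2 at 29.1 CPM (15.3 TPM) were expressed. The YAP targets CYR61 at 298, 403, 450 and 426 CPM and CTGF at 96.6, 178, 160 and 149 CPM were both lowest in control 1.

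The libraries were checked for other cell types through 15 marker lists, which gave 21 expressed genes of 160 members (13.1%), against 55% of all protein-coding genes. Of 16 pan-leukocyte markers, 4 were expressed, LAPTM5, CORO1A, LCP1 and ITGB2. The defining marker PTPRC (CD45) had a single count in all 4 libraries together, and CD53, CD48, CD52, IKZF1 and TYROBP had 0. LAPTM5, a lysosomal protein of blood cells, stood apart at 147, 133, 137 and 155 CPM (146 TPM). The summed level of the list was 149 to 169 CPM, so LAPTM5 made up most of it.

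Of 14 myeloid markers, 1 was expressed, CD68, a lysosomal protein that many cells hold, at 79.3 to 104 CPM. S100A8, MPO, ELANE, CEACAM8, CSF3R, FCGR3B and MNDA had 0 counts in all 4 libraries, and S100A9 had a single count in control 1. Of 14 lymphocyte markers, PAX5, the B cell factor, was expressed at 9.86, 10.9, 7.39 and 8.20 CPM (1.99 TPM), while MS4A1 and the CD3 chains were at 0.

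In the lists of other tissues, few members were expressed beside defining members at 0. TRIM58 had 50.4 CPM, with 1 of 10 erythroid markers expressed and HBB at 0. TNNT1, a slow muscle troponin, had 44.7 CPM (80.3 TPM) and MYH3, an embryonic myosin, 3.40 CPM, which made 2 of 10 muscle markers expressed, while MYOD1 and MYOG were at 0. TUBB3, a tubulin of neurons, had 103, 128, 141 and 149 CPM (162 TPM) while DCX and ELAVL4 were at 0. CDH17, an intestinal cadherin, had 20.9 CPM while CDX2 and MUC2 were at 0, and PAX2, a kidney factor, had 13.4 CPM while WT1 and UMOD were at 0. Of 10 endothelial markers, EGFL7 (116 CPM) and ROBO4 (15 CPM) were expressed, with CDH5 at 0.0309 CPM and PECAM1 at 0.241. The breast and prostate list had the highest share, 3 of 8, among them TRPS1 at 58.8, 45.9, 29.6 and 28.6 CPM and GATA3 at 3.21 CPM, with a summed level of 53.4 to 81.4 CPM. Its other members were mostly at 0, 4 of 8. The melanocyte list had 1 of 7 and the liver list 1 of 8 expressed, with summed levels of 3.68 to 4.76 and 5.30 to 8.19 CPM.

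Of 11 C cell and neuroendocrine markers, ENO2 (61.3 CPM) and NCAM1 (10.4 CPM) were expressed. The calcitonin gene CALCA had 0 counts in all 4 libraries. Of 20 cancer-testis genes and of 7 lung markers, 0 were expressed.

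**Figure D3:**
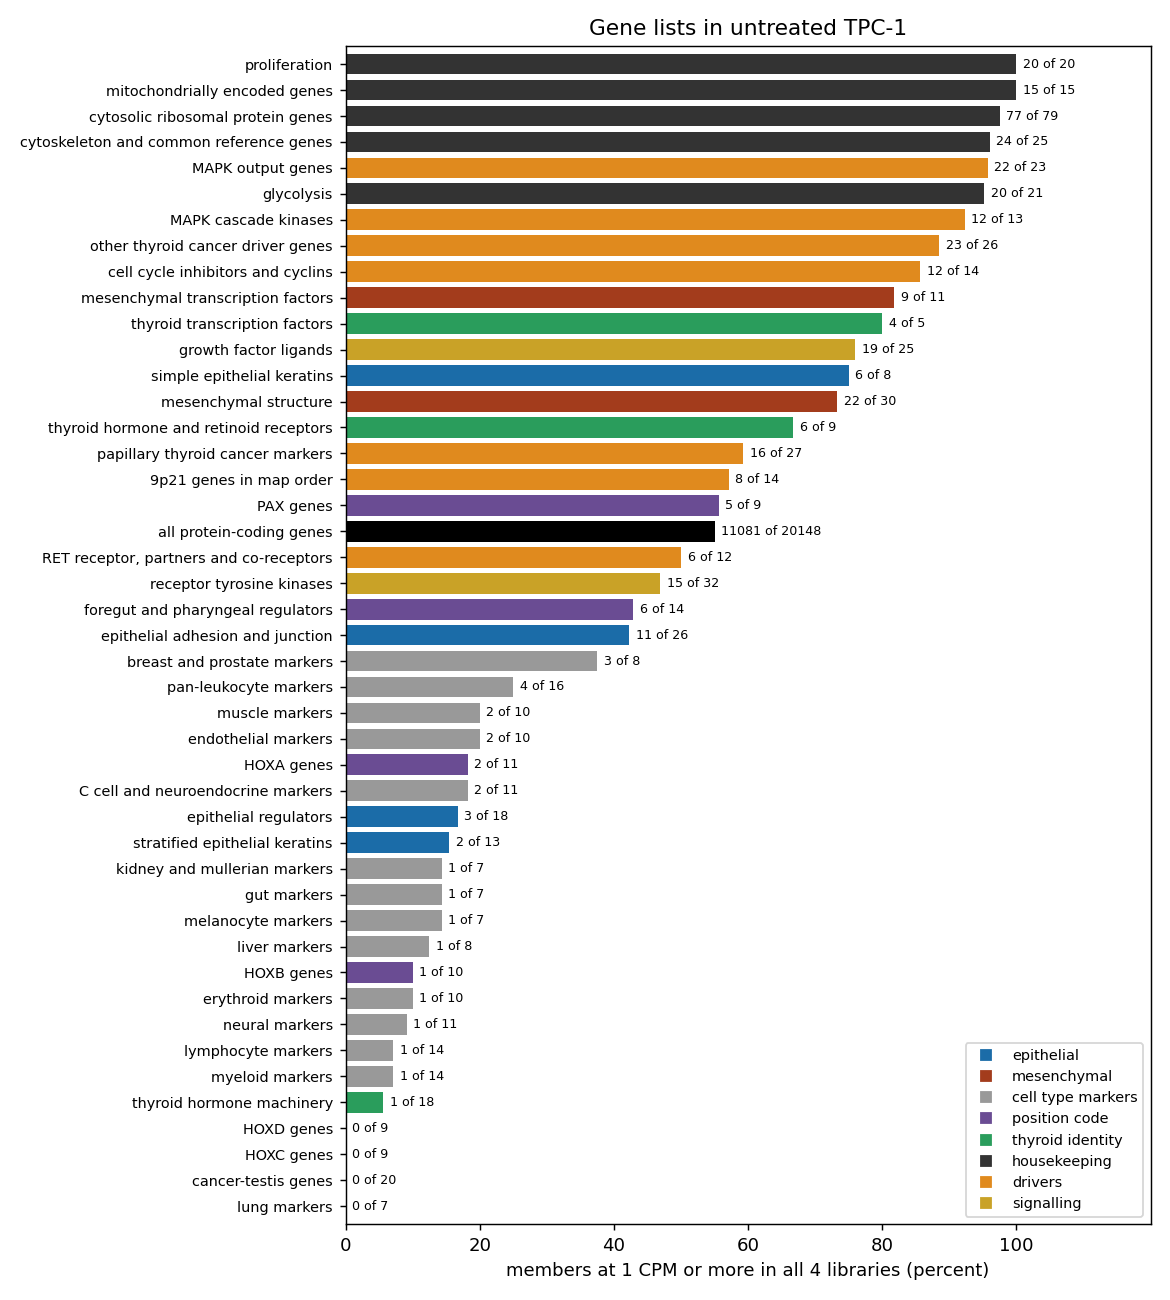
Percent of the members of each gene list at 1 CPM or more in all 4 libraries, with the counts beside each bar and colors for the kind of list; the black bar is all protein-coding genes, 11081 of 20148. Housekeeping and MAPK lists lie at the top, thyroid hormone machinery (1 of 18) and marker lists of other cell types at the bottom.

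HOX genes, regulators that mark position along the body, were sparse beside the 55% of all protein-coding genes that were expressed. Of the HOX clusters, HOXA had 2 of 11 genes expressed (HOXA3, and HOXA5, which lies inside another gene of its strand), HOXB 1 of 10 (HOXB3), and HOXC and HOXD 0 of 9 each. All 9 HOXD genes had 0 counts in all 4 libraries. The PAX family, factors of organ formation, had 5 of 9 members expressed (55.6%), near the share of all protein-coding genes. After PAX8 came PAX6 at 5.54 TPM, PAX9 at 3.53, PAX2 at 2.71 and PAX5 at 1.99. Of 14 foregut and pharyngeal regulators, 6 were expressed (42.9%). SOX9 led them at 32.8 TPM, followed by NKX2-5, a heart and pharynx factor, at 18.9 TPM (12.2, 18.1, 17.3 and 17.6 CPM).

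Among HLA genes, 4 of 15 list members were expressed, among them HLA-B, HLA-C and the class I activator NLRC5. Of the 15, 9 lie in the MHC window and 3 on scaffolds, so the HLA levels, such as 43.4 CPM for HLA-C, cannot be read as levels of the genes. CIITA, the class II activator, lies outside these places and had 0.168 CPM.

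Of 31 known long noncoding RNAs, 23 were expressed (74.2%). The share was 3.94% of the 15754 features labelled ncRNA and 2.83% of the 1237 labelled lncRNA. The list thus does not stand for these classes. Per length the snoRNA hosts led, SNHG5 at 757 TPM, LRRC75A-AS1 (now named SNHG29) at 630, SNHG6 at 578 and GAS5 at 433. MALAT1, a nuclear RNA, read 236, 594, 516 and 513 CPM, so control 1 held less than the other 3 libraries. NEAT1, the RNA of paraspeckles, had 182, 158, 207 and 218 CPM. H19, HOTAIR, MEG3 and the thyroid cancer transcript PTCSC3 had 0 counts in all 4 libraries. VIM-AS1, at 175 to 210 CPM, overlaps VIM on the other strand, and without a stated strand setting its reads and those of VIM cannot be told apart.

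Of 19 structured small RNAs of the core machinery, 2 were expressed, RMRP and RN7SK. A further 12 had 0 counts in all 4 libraries, and 3 of the 19 are placed on scaffolds. How well the libraries and the counting capture such RNAs was not tested. Low counts here therefore cannot be read as low levels in the cells. RMRP had 2.43 CPM and RPPH1 1.28, both RNA subunits of ribonucleases, with RPPH1 under the threshold in control 4. RN7SK, which restrains transcription elongation, had 3.51 CPM in control 1 and 1.16 in each of the other 3. The mitochondrial rRNAs RNR2 and RNR1 had 41.8 and 17.2 CPM (61.2 and 41.2 TPM), against 8861 TPM for the mitochondrial mRNA COX1.

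The 4 libraries were alike for most genes. Over the 12246 expressed genes, the median ratio of the highest to the lowest library was 1.26, the median coefficient of variation (SD over mean) was 10.7%, and the ratio reached 1.5 for 2363 genes (19.3%) and 2 for 443 (3.62%). Without control 1 these counts were 1165 and 188. Of the 89 expressed genes with a mean of 1000 CPM or more, 0 reached a ratio of 2, against 327 of 3190 (10.3%) between 1 and 10 CPM. The edgeR estimate of the biological coefficient of variation, from a fit with an intercept only, was 13.9%.

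Controls 3 and 4 were the closest pair, with a Pearson correlation of 0.9964 across genes on the log2(CPM + 0.5) scale, and controls 1 and 4 the farthest, at 0.9854. Genes are not independent replicates, and these values only describe the libraries. Between controls 3 and 4, 187 genes differed 1.5-fold, against 1435 between controls 1 and 4. A chi-square of the counts gave 5.33 to 44.5 per degree of freedom over the 6 pairs, where 1 is sampling noise alone, so no pair looked like repeat deposits of 1 library. This does not show that the libraries came from separate cultures. Control 1 alone lay 1.5-fold above the other 3 libraries for 169 genes, against 54, 18 and 13 for controls 2, 3 and 4.

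The widest genes fell into separate kinds by where the table places them. Of the 12 genes with the largest ratio at a mean of 10 CPM or more, 7 were on scaffolds, against 62 of all 9056 genes at that level. SMARCB1, a chromatin remodeler subunit, led with 21.2, 1.95, 35.2 and 1.10 CPM, and AATF read 2.24, 2.67, 36.5 and 3.65 CPM. PSMB3, MIF, FBL, YWHAE and SBNO2 were the others on scaffolds. In AATF, PSMB3 and YWHAE control 3 alone was high, in MIF control 1 and in FBL control 4, so no library was high throughout.

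On chromosomes, DHRS3, a retinal reductase, was the widest, at 47.1, 40.2, 4.73 and 6.99 CPM. NOX5, a calcium-activated NADPH oxidase, read 787, 393, 173 and 223 CPM, and LGR5, a WNT pathway receptor, 79.4, 54.4, 24.7 and 27.2 CPM. HNRNPR, with 27.6 CPM in control 3 and 3.76 to 5.60 in the others, and ZBED6, which lies inside another gene of its strand, from 26.8 CPM in control 1 to 7.88 in control 4, completed the 12.

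Of the 30 widest genes on chromosomes, a set taken after the values were seen, 22 were higher in both controls 1 and 2 than in controls 3 and 4. The same count was not made over all expressed genes, so whether 22 of 30 exceeds their share cannot be told. The 22 included the cholesterol exporter ABCA1 (102, 105, 40.6 and 37.1 CPM), IGFBP3 (248, 283, 106 and 113 CPM), and the giant scaffold protein AHNAK2 (312, 271, 167 and 135 CPM). 4 ran the other way, among them HMOX1, heme oxygenase, at 340, 377, 929 and 849 CPM and the matrix protein TGFBI at 21.4, 19.4, 45.8 and 42.6 CPM. FTH1 and MT2A, which store iron and bind metal, were also higher in controls 3 and 4, with FTH1 at 3890, 4650, 5791 and 6026 CPM and MT2A at 617, 665, 917 and 1072 CPM.

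**Figure D4:**
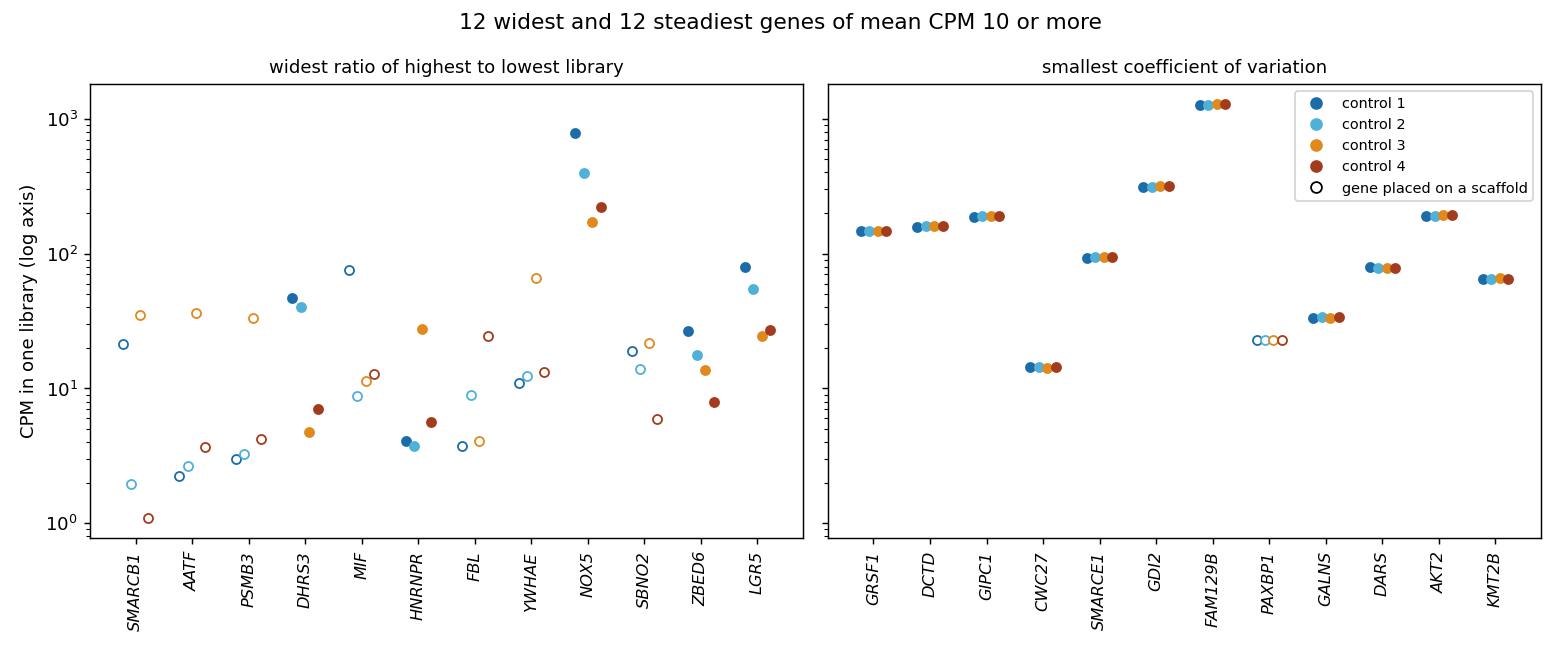
CPM (log axis) in each library of the 12 genes with the largest ratio of highest to lowest library (left) and the 12 with the smallest coefficient of variation (right), among genes with a mean of 10 CPM or more; open circles mark genes placed on scaffolds. Most of the widest genes are on scaffolds, and in DHRS3, NOX5, LGR5 and ZBED6 control 1 is the highest library.

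At the other end, GRSF1, a mitochondrial RNA-binding protein, had the smallest coefficient of variation, 0.441%, at 146 to 147 CPM in every library. GDI2, a regulator of RAB proteins, had 314 to 317 CPM, the dCMP deaminase DCTD 158 to 160 CPM and FAM129B 1264 to 1280 CPM. The kinase AKT2, at 190 to 192 CPM, was also among the 12. By contrast the usual reference genes GAPDH and ACTB had coefficients of 7.08% and 4.24%.

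Library deviations moved with transcript length. The expressed protein-coding genes were split into 5 equal groups by the length in the table, and each library's log2 deviation from the mean of the 4 was taken per gene. Listed lengths in the longest group ran from 6211 to 896838 bases. Whether each is the length of a transcript was not checked, and the TPM values rest on the same lengths. In control 1 the median deviation went from -0.081 in the shortest group to 0.197 in the longest, and in control 4 from 0.1 to -0.166. Control 2 went from -0.069 to 0.055 and control 3 from 0.050 to -0.091. The order of the libraries by this slope was that of the first principal component, which held 64.0% of the variance with controls 1 to 4 at -21.6, -8.96, 13.4 and 17.2. FN1, MET, AHNAK2 and MKI67 have long transcripts and ribosomal protein genes short ones, and the part of length in their differences was not tested.

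**Figure D5:**
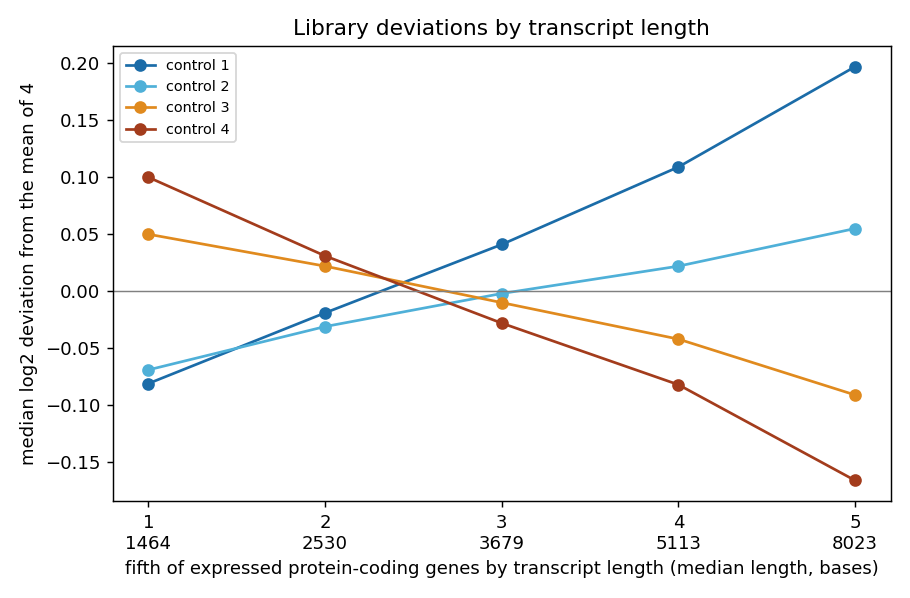
Median log2 deviation of each library from the mean of the 4 libraries, for 5 equal groups of the expressed protein-coding genes ordered by transcript length, with the median length in bases under each group. Controls 1 and 2 slope upward and controls 3 and 4 downward, from -0.081 to 0.197 in control 1 and from 0.1 to -0.166 in control 4.

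The promoters of expressed genes were read for their CpG content. RefSeq promoters, from 250 bases before to 50 after the start, were matched for 9050 of 10937 expressed protein-coding genes on nuclear chromosomes (82.7%). Their median GC content was 65.7%, and 86.3% had a ratio of observed to expected CpG of 0.6 or more, against 67% of all 15069 promoters matched, which cover 77.7% of protein-coding genes. The share was 80.5% for genes under 10 TPM, 88.6% from 10 to 100 TPM, 89.9% from 100 to 1000 TPM and 90.2% at 1000 TPM or more. A comparison with genes at 0 counts is void, because only 70.7% of those had a sequence, and the share over all promoters is a description for the same reason.

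The TATA box, the element that places the transcription start of some highly active genes, was searched as TATAAA on the gene's own strand from 45 to 15 bases before the start. It was found in 8 of 92 promoters (8.70%) of genes at 1000 TPM or more, in 2.09% from 100 to 1000 TPM, in 1.13% from 10 to 100 TPM and in 1.03% under 10 TPM. The share was 1.31% over all expressed genes, 3.52% over all 15069 promoters matched and 8.34% over those of genes at 0 counts that had a sequence. No difference among these sets was tested, and the incomplete cover of the last 2 sets holds here too. On either strand and anywhere in the 300 bases, TATAAA was in 6.60% of all promoters on the gene's strand and in 3.79% on the other. These are descriptions of letters, with no binding measured.

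The 8 genes were RPLP0, MT2A, EEF2, CALR, H2AFZ, TXN, SLC25A5 and PPIA. The stretches before MT2A, the translation factor EEF2 and the chaperone CALR are shown because they hold the match, with TATAAA in capitals. They lie at chr16:56608466-56608565 on the plus strand, chr19:3985464-3985563 on the minus strand and chr19:12938500-12938599 on the plus strand.
MT2A: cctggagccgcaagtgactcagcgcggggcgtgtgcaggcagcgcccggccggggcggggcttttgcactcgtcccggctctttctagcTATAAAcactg
CALR: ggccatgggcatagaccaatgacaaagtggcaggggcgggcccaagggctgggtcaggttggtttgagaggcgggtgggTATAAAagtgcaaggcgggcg
EEF2: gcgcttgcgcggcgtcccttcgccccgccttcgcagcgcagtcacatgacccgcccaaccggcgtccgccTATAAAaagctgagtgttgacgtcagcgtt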

How the data were processed

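RNA was measured by sequencing of libraries from TPC-1 cells. The deposited table holds raw counts per gene made by the authors, with a gene class and transcript length. HISAT2 2.0.4, BWA and GRCh38.p10 stand in the submitters' processing notes with no role given. The counting tool is not given in the sources used here, nor are the annotation and the strand setting. All value columns were mapped to a sample by name (0 were left out), and only the 4 controls were used.

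CPM, TPM from the table's lengths, and spread were computed with Python 3.11.15, numpy 2.4.6 and pandas 2.3.3, and the dispersion with edgeR 4.0.16 in R 4.3.3. DESeq2 1.42.0 gave alternative size factors. The dispersion step was tested on simulated data. No test between groups was made, so no p-value is given.

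The members and lists were chosen with earlier results of these data known. The named genes are the 20 protein-coding genes highest per length and the 10 highest by mean CPM; the 5 highest of each class; all thyroid factor, hormone machinery, RET, driver and 9p21 genes; of other lists up to 5 highest per length and those at 0; and the 12 widest and 12 steadiest genes of at least 10 CPM. Other genes named were chosen after their values were seen. Of 695 list entries, 692 matched the table, 3 of them under an older symbol. Alternatives were other thresholds, library scalings, a scale per length and leaving out each library. Some genes that this rule names are not reported here.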

Additional observations from a re-analysis of the deposited data

Results flagged for a closer look

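Of 165 named genes at a mean of 1 CPM or more, 19 had 1 library far from the other 3, by Dixon's critical value for the gap over the range. Of the 19, 5 were among the 12 genes named for their wide spread, and 14 were among the other 153. Chance flags about 1 in 20 groups of 4, but many genes were named with their values known and genes of 1 library are not independent, so the share is not set against that rate. Of 7 measures of whole libraries (totals, genes at 1 CPM and shares of counts), 0 met the same criterion.

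Control 1 stood apart for 8 of them. It was high for SOX9 (69.5 CPM against 51.8 to 52.0), ENO2 (71.7 against 57.4 to 58.0), ZEB1 (74.3 against 44.6 to 49.6), DUSP6 (76.8 against 48.7 to 52.5), RN7SK (3.51 against 1.16) and MIF (75.4 against 8.85 to 12.7). It was low for the heart and pharynx factor NKX2-5 (12.2 against 17.3 to 18.1) and the mitochondrial gene ATP6 (1709 against 2001 to 2043).

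Control 2 was high for CLDN1 (216 CPM against 158 to 165), the epithelial regulator KLF5 (15.5 against 5.64 to 6.11), SLC2A1 (154 against 125 to 127) and NLRC5 (27.9 against 23.6 to 24.0), and low for SLC16A3 (333 against 384 to 387). Control 3 was high for AATF (36.5 against 2.24 to 3.65), PSMB3 (33.3 against 3.02 to 4.23), YWHAE (65.8 against 11 to 13.3) and HNRNPR (27.6 against 3.76 to 5.60), and low for TIMP1 (195 against 213 to 215). Control 4 was high for COX2 (2217 against 1913 to 1952). Of these genes, MIF, AATF, PSMB3 and YWHAE are placed on scaffolds.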

How the results depend on the processing

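The count of 12246 expressed genes ran from 9999 at 5 CPM to 13134 at 0.5 CPM, and was 12236 with TMM or DESeq2 library sizes. The protein-coding share fell from 98.0% to 95.2% per length. The share of the top 100 genes was 20% with mitochondrial genes left out of the total and 31.7% per length. The 2363 of 12246 genes with a 1.5-fold range became 1016 of 9056 at a mean of 10 CPM or more and 15245 of 25641 with any count. Leaving out each library gave 1165 (without control 1) to 2061 (without control 3). The range of a given gene cannot widen when a library is left out, so part of this fall is built in. Centring each library by length group, also chosen after seeing the data, gave 1881. The share of CpG-rich promoters was 71.1% at a ratio of 0.75 and 88.0% at 5 CPM. The alternatives without scaffold and MHC genes were chosen after seeing the data, and gave 12089 expressed genes. No paired analysis was possible because no groups were compared and no result comes from a test. Depth limits genes near 3 counts, and 4 libraries of 1 line limit every SD.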
